A study of Mus musculus with 148 samples.

Results

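The CpGs described here lie in a fixed window around the imprinted control region of *Grb10* on chromosome 11 (GRCm38), and those read deeply enough flank its CpG island. Every CpG row of the window was taken by position, each strand counted apart, without selection on its modification level. Earlier results of these data were known when the window was chosen. The window held 88 CpGs of the 3762 in the series, listed from 12023119 to 12027097. Of these, 26 had more than 30 reads in at least 1 sample, at 23 positions of which 3 were read on both strands, and 17 had more than 30 reads in every sample. The other 62 never passed 30 reads. In the whole series, 1637 CpGs passed 30 reads in at least 1 sample and 1312 in every sample.

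DNA came from enterocytes isolated from the villi of the small intestine of C57BL/6NCrl mice, cut into 9 segments from the proximal duodenum (segment 1) to the distal ileum (segment 9). The DNA was bisulfite-converted, captured with padlock probes (single-stranded probes that close around a chosen stretch and copy it) and sequenced, so that each read calls a cytosine modified or unmodified. P60 adults on standard food and water gave 71 samples, 8 in each segment except segment 6 with 7. P6 infants gave 10 samples, 3 in segment 1, 3 in segment 3 and 4 in segment 7. P90 adults were given milk in place of water for 60 days from P30, either lactose-containing milk with sucrose added (LAC+) or lactose-free milk (lac-). They gave 35 LAC+ samples, 7 in each of segments 1, 3, 4, 7 and 8, and 32 lac- samples, with 6, 6, 7, 6 and 7 in the same segments. No group carried a mutation or a transgene. The mice were inbred, so reads from the maternal and the paternal allele could not be told apart.

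*Grb10* encodes an adaptor protein that binds the insulin receptor and restrains growth. In the mouse it is imprinted: in most tissues its transcripts come from the maternal allele, whereas in neurons transcripts from internal start sites come from the paternal allele. The CpG island at those internal start sites carries methylation on the maternal allele that was set in the egg, and bulk DNA from an island methylated on the allele of 1 parent is read at an intermediate level.

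The gene is on the minus strand at chr11:11930508-12038683, and all 26 CpGs were intronic. They formed 3 clusters around the internal transcript starts at 12026324 and 12026732. The first cluster, chr11:12023119-12024122, held 6 CpGs. The second, chr11:12024675-12025481, held 15, of which 10 were covered in every sample. The third, chr11:12026933-12027096, held 5, of which 1 was covered in every sample. The stretch between the second and the third cluster, chr11:12025483-12026931, is the island itself, with 10.2 CpGs per 100 bp, 64.7% G and C and an observed to expected CpG ratio of 0.99. None of its CpGs had more than 30 reads in a sample. None of the 14 probes of this target lay between 12025507 and 12026887, so most of this stretch was not targeted. The measured CpGs are therefore those of the island's flanks.

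The sequences below, from the GRCm38 reference on the plus strand, show the 4 stretches the results turn on, with the CpGs that were read in capitals. The first, chr11:12024966-12025125, holds the CpG at 12025013, whose plus-strand cytosine and minus-strand cytosine (12025014) were copied by separate probes, followed by the CpGs at 12025104 and 12025124. The second, chr11:12025400-12025490, is the last stretch before the island and holds 6 CpGs that 1 probe copied together. The third and the fourth, chr11:12023090-12023150 and chr11:12023295-12023350, hold the CpGs with the lowest levels, at 12023119 (12023120 on the minus strand) and 12023322. The reference marks 12023119 and 12023120 as repeat sequence, but not 12023322. Median reads were 543.5 at 12023119 and 9412 at 12023120. Lower case in the sequences below does not mark repeats.
Gradient dyad and next CpGs: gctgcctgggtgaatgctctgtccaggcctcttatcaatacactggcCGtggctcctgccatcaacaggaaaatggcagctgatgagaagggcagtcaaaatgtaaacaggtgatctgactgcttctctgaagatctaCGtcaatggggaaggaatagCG
Island edge: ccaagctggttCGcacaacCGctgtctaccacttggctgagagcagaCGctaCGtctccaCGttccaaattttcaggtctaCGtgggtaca
Low-level dyad: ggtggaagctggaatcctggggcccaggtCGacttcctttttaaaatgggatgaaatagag
Low-level single CpG: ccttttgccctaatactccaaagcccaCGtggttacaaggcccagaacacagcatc

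The summed reads over the 26 CpGs ranged from 35260 to 212484 per sample (median 57611). By group the median sum was 49940 for P60, 89339 for P6, 104971 for LAC+ and 92093 for lac-. Per CpG, median reads ran from 15 at 12024675 and 12024808 to 9412 at 12023120. The 418 non-CpG cytosines (CpHs) of the window that were read in every sample averaged 0.367% modified, with a highest sample of 0.452%. The names of the deposited files give a sequencing lane and mark some files as merged. All P6 samples were on lane 8, where no P60 sample was, so age and lane cannot be told apart. P60 samples were spread over lanes 4 to 7 and none was merged, whereas 29 of 35 LAC+ and 12 of 32 lac- files were merged.

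The first question was how the imprinted label sits with the levels. The mean of the 17 CpGs covered in every sample was 60.9% ± 1.45 (SD, n = 71) for P60 and 59% ± 1.85 (SD, n = 10) for P6 mice. It was 62.7% ± 1.18 (SD, n = 35) for LAC+ and 61.5% ± 2.08 (SD, n = 32) for lac- mice. Single CpGs were spread much more widely than samples. Averaged over all samples, 10 of the 17 CpGs lay between 25 and 75%, 5 lay above 75% and 2 lay under 25%, while 4 of the 17 stayed between 25 and 75% in every sample. By their means, most but not all CpGs of the flanks were therefore at intermediate levels, though most did not stay in that range in every sample. Of the 17, 2 averaged between 40 and 60%. Over all 1312 CpGs of the series read in every sample, the mean was 63.83% in P60 and 61.12% in P6 samples. It was 63.03% in LAC+ and 63.15% in lac- samples. The mean level alone thus does not set this window apart from the rest of the series. The share of all CpGs between 25 and 75% was not counted.

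The first cluster held the extremes. In the P60 samples, the CpG at 12023322 was the lowest, at 3.21 to 19.8% (median 11.7%), and both strands of the CpG at 12023119 were low, at 20.6% ± 4.49 (SD, n = 71) on the plus strand and 23.5% ± 4.14 (SD, n = 71) on the minus strand. In the same cluster, 12024122 lay at 87.3 to 96.2% (median 92.4%). It was the highest of the 17 CpGs in every sample. Low and high CpGs thus lay in the same 1004-bp cluster, with 12023757 at 73.9% ± 3.87 (SD, n = 71) between them.

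Within a single probe of the second cluster, levels fell toward the island, apart from 12025452, which lay above 12025447. In the P60 samples, 12025411 was at 80.9% ± 3.26, 12025419 at 73.2% ± 3.54, 12025447 at 64.3% ± 4.24, 12025452 at 67.4% ± 3.73, 12025460 at 50.5% ± 2.35 and 12025481 at 49.6% ± 2.45 (SD, n = 71). These 6 CpGs lie within 70 bp and were read from the same molecules, at a median of 2040 reads. Over all samples, 12025411 exceeded 12025481 by 19.7 to 42 percentage points (median 32.8). The CpGs at 12025460 and 12025481, those nearest the island, were the lowest of the 6 in every sample.

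The third cluster was thinly read. It lay upstream of the internal starts at 12026324 and 12026732 and downstream of another annotated internal start, at 12027971. Its one CpG covered in every sample, 12027096, was at 65.8% ± 5.87 (SD, n = 71) in P60 mice. The lowest of its 5 CpGs in P60, 12026933, was at 46% ± 13.9 (SD, n = 23) and the highest, 12026984, at 75.7% ± 11 (SD, n = 23). Each had 23 reads at the median over all P60 samples, so that counting error alone was wide. The 2 minus-strand CpGs at 12024675 and 12024808 of the second cluster were over 30 reads in 26 samples each and entered few tests.

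**Figure D1:**
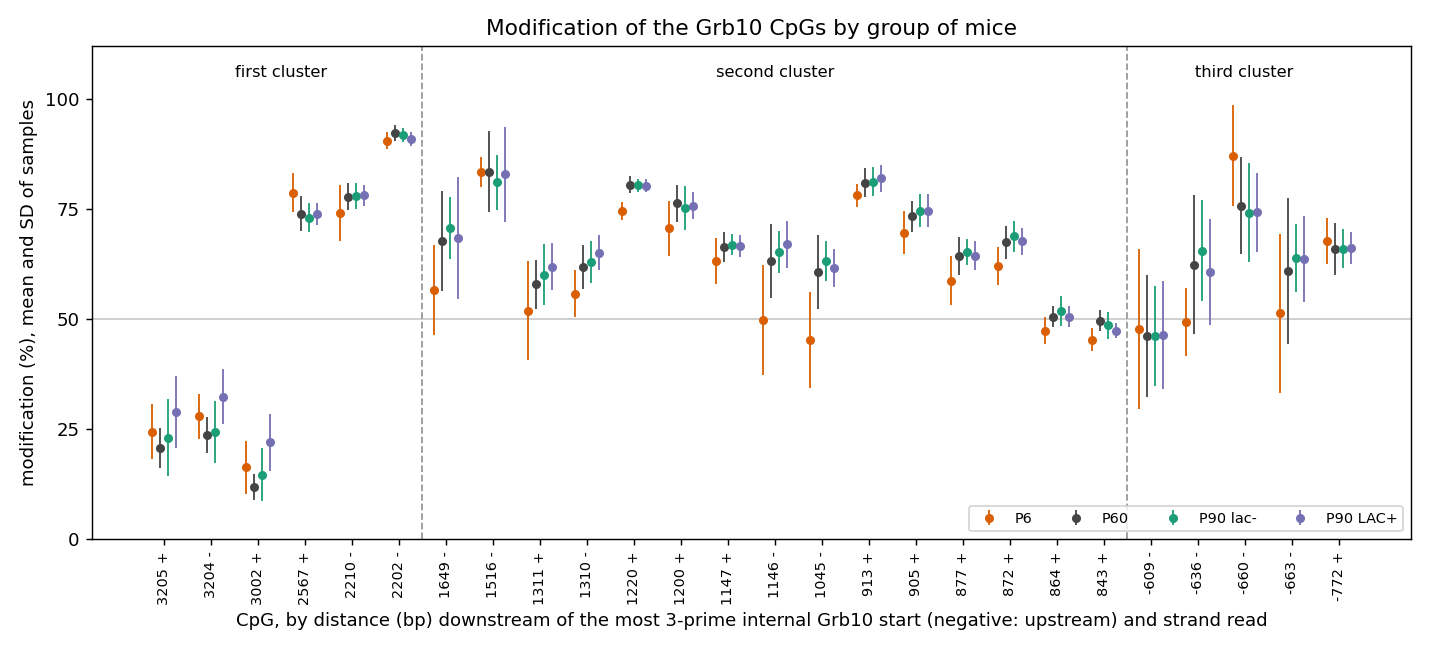
Modification (percent, vertical axis) at the 26 CpGs, ordered by distance in bp from the internal *Grb10* start at 12026324 and by strand (horizontal axis). Points and bars are the mean and SD over P6, P60, lac- and LAC+ samples, and the largest distances between CpGs are those between the low CpGs at 3205, 3204 and 3002 bp and the CpG at 2202 bp, at about 92% in P60.

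Where both strands of a CpG were read, separate probes gave levels a few points apart. Over all samples, 12025013 was at 58.8% ± 6.78 and 12025014 at 62.3% ± 5.21 (SD, n = 143), a mean difference of 3.51 points, with the minus strand higher in 108 of 143 samples. The dyad at 12023119 differed by 2.78 points (minus strand higher in 79.1% of samples), and the dyad at 12025177 by 2.66 points in the other direction (minus strand higher in 49 of 142). The SEs of these mean differences were 0.419, 0.394 and 0.617 points, each smaller than its difference. They pool samples of all groups as independent, and since samples may share mice they may be too small. Single samples varied more widely (SD of the difference 5.01, 4.79 and 7.35 points).

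The segments of the adult intestine were compared next, because the study asked how modification changes along the gut within 1 cell type. Each cytosine's counts were tested with a quasi-binomial F test, and p-values were Bonferroni-adjusted over all cytosines of all targets, with 0.01 as the threshold. Across the 9 P60 segments, 2 of the 20 *Grb10* CpGs tested changed, both of them in the same dyad, against 14.5% of all 1515 CpGs tested. At a Benjamini-Hochberg adjusted p under 0.05 (false discovery rate over all cytosines) the count was also 2, against 25% of all CpGs. The minus-strand cytosine at 12025014 passed with adjusted p = 4.56e-11 and the plus-strand cytosine at 12025013 with adjusted p = 0.0025 (quasi-binomial F test). Permuting the segment labels gave p = 1e-05 for each, the smallest that 100000 permutations can give. The labels do not tie samples to mice, and samples of the same or of different segments may come from the same mice. These p-values thus treat as independent what may share an animal.

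At 12025014, the 8 samples of segment 1 ran from 49.4 to 62.2% (median 55.9%) and the 8 of segment 9 from 61.8 to 73.5% (median 69.4%). Segment means were 56.2, 56.7, 58.5, 61.3, 60.7, 62.7, 64.2, 67.2 and 68.9% from segment 1 to segment 9, with SDs of 1.60 to 3.91. The level thus rose along the gut, and in segment 9 all but 1 of the 8 samples exceeded the highest of segment 1. The differences between neighbouring segment means, at most 2.99 points, were within or close to the SD of samples within a segment.

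At 12025013, read by a different probe on the other strand at a median of 199 reads in P60, segment 1 ran from 48.6 to 55.7% (median 53.7%) and segment 9 from 56.9 to 73.7% (median 64.6%). The segment means were 52.7, 54.1, 54.7, 54.2, 59, 60.3, 61, 59.4 and 65.2%. All 8 samples of segment 9 lay above all 8 of segment 1, which held for 9.64% of all CpGs in that direction. With more than 100 reads required, this CpG missed the threshold (adjusted p = 0.0443), as it did with limma on log2 odds (adjusted p = 0.102).

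The pair of segments at the ends of the gut, tested alone, gave 0 of 24 *Grb10* CpGs past the threshold with the quasi-binomial test, against 5.83% of 1545 CpGs. At an unadjusted p under 0.05 there were 4, beside 37.7% of all CpGs, and limma called 0. Under Benjamini-Hochberg adjustment 2 passed, against 17.5% of all CpGs. At 12025014 the difference between segments 1 and 9 was 12.7 points (adjusted p = 0.0211, exact permutation p = 0.000311). At 12025013 it was 12.5 points (exact permutation p = 0.000155, the smallest that 8 against 8 samples allow), with an adjusted p of 0.703. Both cytosines had been singled out by their change across these same samples. Their permutation p-values are not adjusted for that choice and add no separate support.

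The CpGs around the dyad differed less between the ends of the gut. Between segments 1 and 9, 12025104 (91 bp away, copied by another probe) went from 79.2% ± 1.29 to 81.3% ± 2.18 (SD, n = 8 each). On the same probe, 12025124 and 12025177 were 3.97 and 4.10 points higher in segment 9, and 12023757 in the first cluster was 3.54 points higher (adjusted p = 1 for each). The change at 12025014 exceeded that at 12025104 by 10.5 points. It exceeded that at 12024122, the nearest CpG read in every sample on the other side, by 11.4 points. Since 12025014 was singled out by its change in these same samples, these 2 differences are a description and carry no test. Over the 20 CpGs tested across P60 segments, differences between segments 9 and 1 ran from -4.69 to 12.7 points with a median of 1.22, beside a median of 0.723 over all CpGs tested. Of the 20, 14 were higher in segment 9, which was the case for 65% of all CpGs.

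The difference was present within each lane that held both segments. At 12025014, segments 1 and 9 averaged 55.8% (n = 2) and 68.2% (n = 3) on lane 5, 55.4% (n = 3) and 68.8% (n = 2) on lane 6, and 58.2% (n = 2) and 69.6% (n = 3) on lane 7. At 12025013 the pairs of means were 55.4 and 59.9%, 52.3 and 64.6%, and 51.5 and 70.9% on the same lanes. Segment 9 was the higher in all 6 of these pairs.

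**Figure D2:**
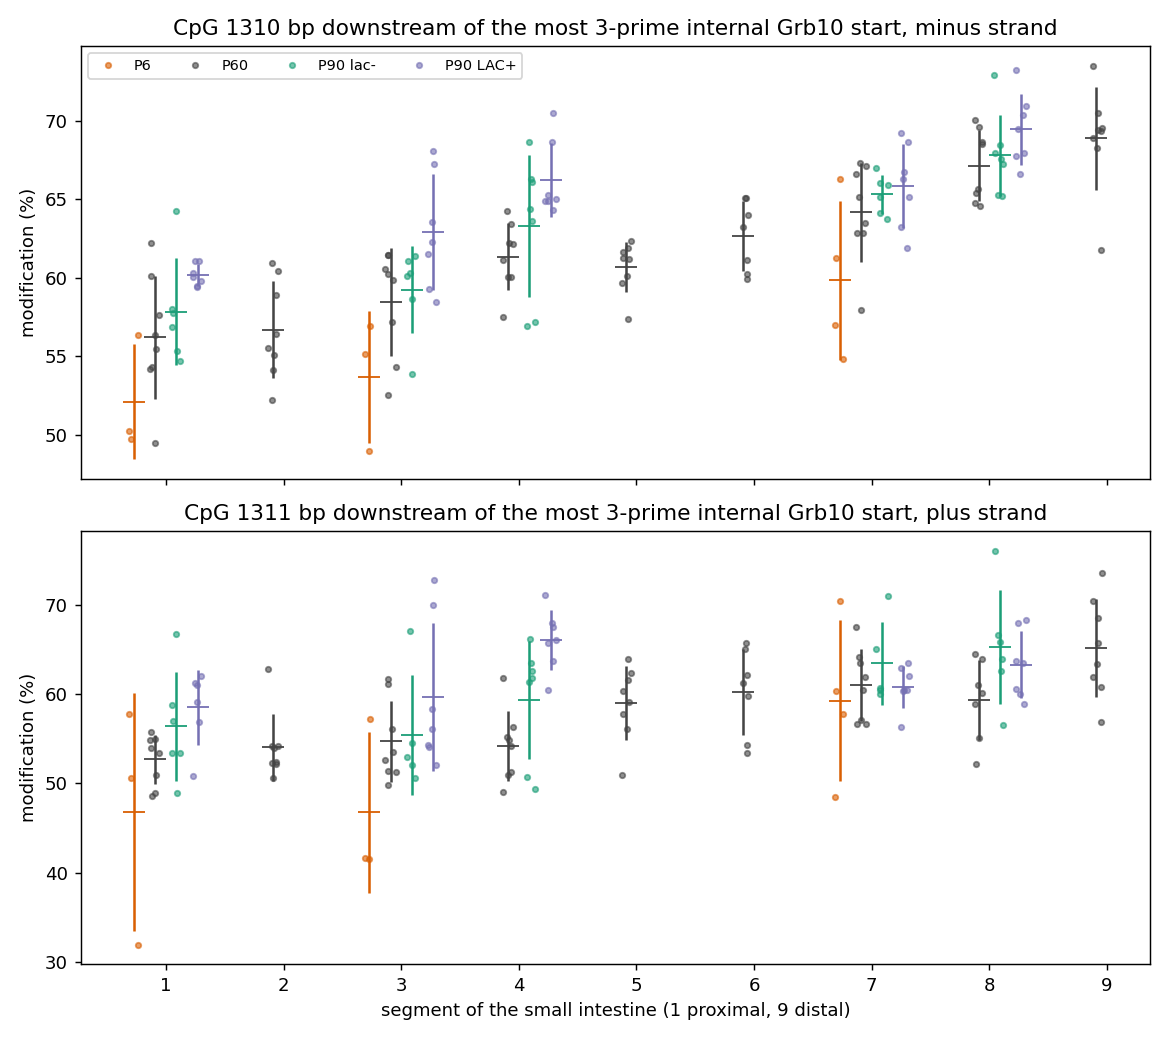
Modification (percent) of the minus-strand cytosine at 12025014 (upper panel) and the plus-strand cytosine at 12025013 (lower panel) by segment, with 1 point per sample and the mean and SD of each group. In P60 mice the means rise from 56.2% in segment 1 to 68.9% in segment 9 in the upper panel and from 52.7 to 65.2% in the lower.

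The P90 mice gave a separate set of animals for the same question, with 5 segments and diet kept in the model. Again 2 of 20 *Grb10* CpGs changed across segments, against 17% of all 1489 CpGs, and 1 of them was 12025014 (adjusted p = 2.64e-09, quasi-binomial F test). In lac- mice, 12025014 lay at 54.7 to 64.3% in segment 1 (median 57.3%) and at 65.2 to 73.0% in segment 8 (median 67.6%). In LAC+ mice it lay at 59.4 to 61.1% (median 60.1%) and at 66.6 to 73.2% (median 69.5%). Segment 8 was above segment 1 without overlap under each milk (exact permutation p = 0.000583 for each, the smallest possible with these numbers), as in 8.93% of all CpGs in lac- and 9.2% in LAC+ mice. In these mice segments 1 and 8 shared no lane, and only 1 library, lac- segment 3 replicate 1 on lane 3 (53.9% at 12025014), joined the lanes of segments 1 and 4 to those of the other segments, so a fit with lane rests on it. With lane in the model 12025014 still passed across the segments (adjusted p = 1.88e-08), but its fitted difference between segments 8 and 1 was 2.37 points, beside 9.55 points without lane and 12.5 points between segments 9 and 1 with lane in P60 mice.

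The rise from segment 1 to segment 8 at 12025014 was 9.29 points in LAC+, 9.99 points in lac- and 10.9 points in P60 mice. The rises did not differ detectably between the milks (difference -0.698 points, permutation p = 0.727) or between P90 lac- and P60 mice (difference -0.955 points, permutation p = 0.693). The plus-strand cytosine at 12025013 rose by 4.76 points in LAC+ and 8.93 points in lac- mice on average, and missed the threshold across P90 segments (adjusted p = 1). Its exact permutation p between segments 1 and 8 was 0.0524 in LAC+ and 0.039 in lac- samples, with n of 5 to 7 in each of the P90 groups.

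Under Benjamini-Hochberg adjustment 5 of the 20 passed across P90 segments, against 48.6% of all CpGs. The other CpG called by the stricter rule, 12023119, did not follow the order of the gut. Over the P90 samples of both milks its means were 31.3% in segment 1 and 24% in segment 8 (adjusted p = 0.00413 across segments), and by group they were highest in segments 1 and 4. In LAC+ mice they were 34.3, 22.7, 36, 24.3 and 26.2% in segments 1, 3, 4, 7 and 8, and in lac- mice 27.7, 19, 28.1, 17.4 and 21.9%. Segments 1 and 4 were sequenced on lanes 3 and 5, and the other segments on lanes 1, 2, 6 and 7 apart from 1 library on lane 3. With lane or the merged mark in the model the adjusted p was 1. In P60 mice the same CpG was at 18.9 to 22.6% on average in every segment and did not pass (adjusted p = 1).

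**Figure D3:**
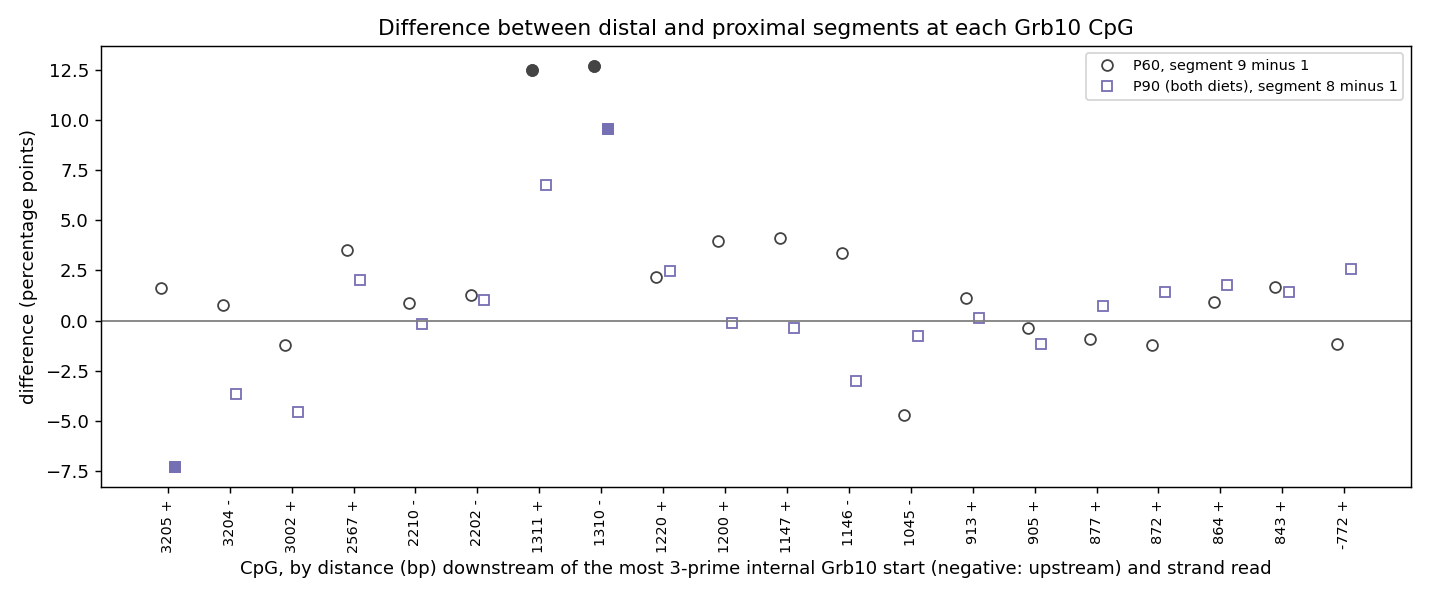
Difference in percentage points between distal and proximal segments (vertical axis) at each CpG tested, ordered by distance from the internal *Grb10* start at 12026324. Circles are P60 segment 9 minus 1, squares P90 segment 8 minus 1, and filled symbols passed the threshold across segments: the dyad at 1311 and 1310 bp lies at 12.5 and 12.7 points in P60.

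In P6 infants, the question was whether a gradient was present before weaning. None of the 20 *Grb10* CpGs passed across segments 1, 3 and 7 with the quasi-binomial test, 0 had an unadjusted p under 0.05 (13.8% of all CpGs did), and limma called 0, where 0% of all 1484 CpGs passed with either Bonferroni or Benjamini-Hochberg adjustment. At 12025014 the infants' values were 50.3, 49.7 and 56.3% in segment 1, 57, 55.2 and 49% in segment 3, and 66.3, 61.3, 54.8 and 57% in segment 7. The mean difference between segments 7 and 1 was 7.75 points with overlapping values (exact permutation p = 0.114, where 0.0286 is the smallest possible), beside 7.96 points in P60. The difference between these changes was not detectable (-0.209 points, permutation p = 0.957). The lowest p among the infants' CpGs was at 12025481 (permutation p = 0.0866).

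Age was compared within segments 1, 3 and 7. No *Grb10* CpG of 20 passed the threshold in segment 1, 3 or 7 with the quasi-binomial test, where 1.27, 1.21 and 1.98% of all CpGs passed. Of the 20, 10, 7 and 6 had an unadjusted p under 0.05, beside 44.2, 34.3 and 38.3% of all CpGs, and limma called 0 in each. With Benjamini-Hochberg adjustment 2, 1 and 1 passed, against 22.7, 14.2 and 19.6% of all CpGs. P60 samples were higher on average at 15, 16 and 15 of the 20 CpGs, beside 64.7, 69.4 and 60.1% of all CpGs. Median differences were 3.83, 3.80 and 2.79 points over the *Grb10* CpGs and 1.55, 1.52 and 0.812 points over all CpGs.

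Of the 20 CpGs, 15 were higher in P60 than in P6 in each of the 3 segments, beside 43.9% of all CpGs, and 4 were lower in each, beside 17.2%. The 13 CpGs tested from 12025013 to 12025481 in the second cluster were among the 15, as were 12024114 and 12024122 of the first cluster. In the first cluster, 12023120, 12023322 and 12023757 were lower in P60 in each segment, as was 12027096 of the third, and 12023119 was lower in segments 1 and 7 and higher in segment 3 (differences of -4.60, -8.53 and 2.15 points). Position was not tested. Single CpGs of the second cluster had the lowest p in each segment.

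At 12025279, a minus-strand cytosine of the second cluster, the 3 infants' values in segment 1 were 41.1, 46.4 and 36.1%, and the 8 adult values ran from 60.7 to 69.5% (median 63.5%). All adults lay above all infants, as they did for 2 of the 20 *Grb10* CpGs and 22.1% of all CpGs in that segment. The difference of 23.5 points had adjusted p = 0.185 and an exact permutation p of 0.00606, the smallest that 3 against 8 samples allow. Reads at this CpG were few, with a median of 179 in that comparison. In segments 3 and 7 the infants averaged 47.8% ± 2.52 (SD, n = 3) and 46% ± 17.7 (SD, n = 4), and the adults 59.1% ± 7.91 and 61.1% ± 6.85 (SD, n = 8 each).

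The CpG at 12025104 differed by less but more evenly, and was deeply read, with medians of 6159, 6109 and 6102 reads in the comparisons of segments 1, 3 and 7. Infants were at 73.5, 75.7 and 71.9% in segment 1, at 77.4, 75.4 and 72.9% in segment 3, and at 76.2, 76.3, 71.4 and 73.7% in segment 7. Adults ran from 76.7 to 80.5%, from 78.1 to 83.6% and from 76.6 to 82.1% in the same segments. The adult values lay above all infant values in each of the 3 segments, as did those of 5.87% of all CpGs tested in all 3. The differences were 5.47, 5.33 and 5.97 points, and in segment 7 its exact permutation p was 0.00202, the smallest that 4 against 8 samples allow (adjusted p = 1).

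In segment 3, the lowest p was at 12025447, in the probe at the island edge. The infants were at 53.1 to 58.3% (median 56.5%) and the adults at 61 to 68.5% (median 64.8%), without overlap (exact permutation p = 0.00606, the smallest possible), where 14.2% of all CpGs had adults above infants without overlap. Its adjusted p was 1.

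**Figure D4:**
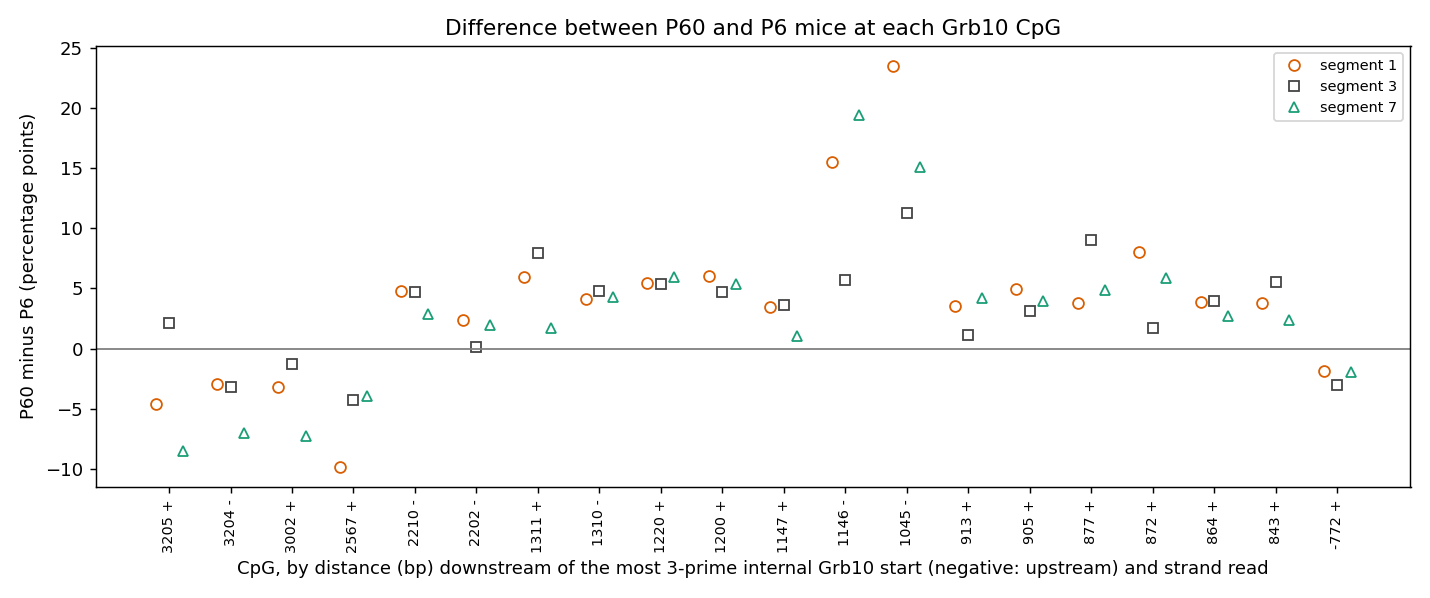
Difference between P60 and P6 means (percentage points, vertical axis) at each of the 20 CpGs tested, ordered by distance from the internal *Grb10* start at 12026324, in segments 1, 3 and 7. No symbol is filled because no CpG passed the threshold. The CpGs from 1311 to 843 bp lie above 0 in each segment, and the largest difference is 23.5 points, in segment 1 at 1045 bp.

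The milks were compared in each of the 5 segments of P90 mice, over CpGs at most 90% modified. No *Grb10* CpG passed the threshold with the quasi-binomial test, of 25, 23, 23, 19 and 23 tested in segments 1, 3, 4, 7 and 8, and 0% of all CpGs passed in each segment. At an unadjusted p under 0.05 there were 3, 1, 1, 5 and 3, beside 8.78, 8.05, 9.88, 16 and 20.4% of all CpGs, and limma called 0 in each. With Benjamini-Hochberg adjustment 1 passed, in segment 8, where 7.18% of all CpGs did, and 0 in the other segments, where 0% did. The lowest p in segment 1 was at 12025411, which was 2.74 points higher in LAC+ samples (exact permutation p = 0.0245). In segments 3, 4 and 7 it was at 12025419 (4.07 points higher in LAC+), 12025013 (6.74 points higher) and 12025452 (4.32 points lower, difference -4.32), with exact permutation p of 0.16, 0.0239 and 0.0111.

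In segment 8 the lowest p was at the low-level CpG 12023120, in sequence that the reference marks as repeat. The 7 lac- samples ran from 16.6 to 27.8% (median 22.8%) and the 7 LAC+ samples from 28.6 to 38.3% (median 33.6%). The groups did not overlap, which was the case with LAC+ higher for 0.39% of all CpGs in that segment. The difference of 11 points had adjusted p = 0.484 with the quasi-binomial test and an exact permutation p of 0.000583, the smallest possible with 7 against 7 samples. The 2 other low cytosines, 12023119 and 12023322, were 4.29 and 8.18 points higher in LAC+ samples of that segment (adjusted p = 1 for each), and all 3 were higher on average in LAC+ samples in each of the 5 segments.

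The merged mark moved with the milk at these 3 cytosines. In segment 8, 6 of the 7 LAC+ files and 1 of the 7 lac- files were merged. Among lac- samples of all segments, 12023120 averaged 19.6% ± 3.39 (SD, n = 20) in files that were not merged and 32.2% ± 3.36 (SD, n = 12) in merged files. Among LAC+ samples, the merged files averaged 33.4% ± 4.07 (SD, n = 29), close to the merged lac- files, and the 6 others ranged from 17.7 to 48.2% (median 22.6%). Within lac- samples, 12023119 and 12023322 were also higher in merged files, by 11.9 and 11.3 points.

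None of the other 14 CpGs covered in every sample differed by more than 3.04 points in either direction between merged and other lac- files, and the median absolute difference over all 1312 CpGs was 1.30 points. A rise at least as large as the smallest of the 3 was seen at 2.13% of all CpGs in lac- and 4.73% in LAC+ samples. In LAC+ samples the largest difference among the other 14 was -4.21 points, at 12027096. At 12025014, merged and other lac- files differed by 0.28 points with segments pooled. Of the 12 merged lac- files, 4 were from segment 1 and 5 from segment 4. Within each segment, over both milks, its merged files averaged higher. In segment 1 the means were 59.8% (n = 11) merged and 55% (n = 2) not merged. In segment 4 they were 66.1% (n = 12) and 57.1% (n = 2). In segments 3, 7 and 8 they were 63.2 and 60%, 66.3 and 65%, and 69.1 and 68.2%. Merged lac- files also held more reads, with a median of 149569 over the 26 CpGs against 53442. With the merged mark in the model, the milk difference at 12023120 in segment 8 was 6.09 points, and with lane 4.79 points, beside 11 points with neither (adjusted p = 1 with either term). The part of depth in that difference was not tested.

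**Figure D5:**
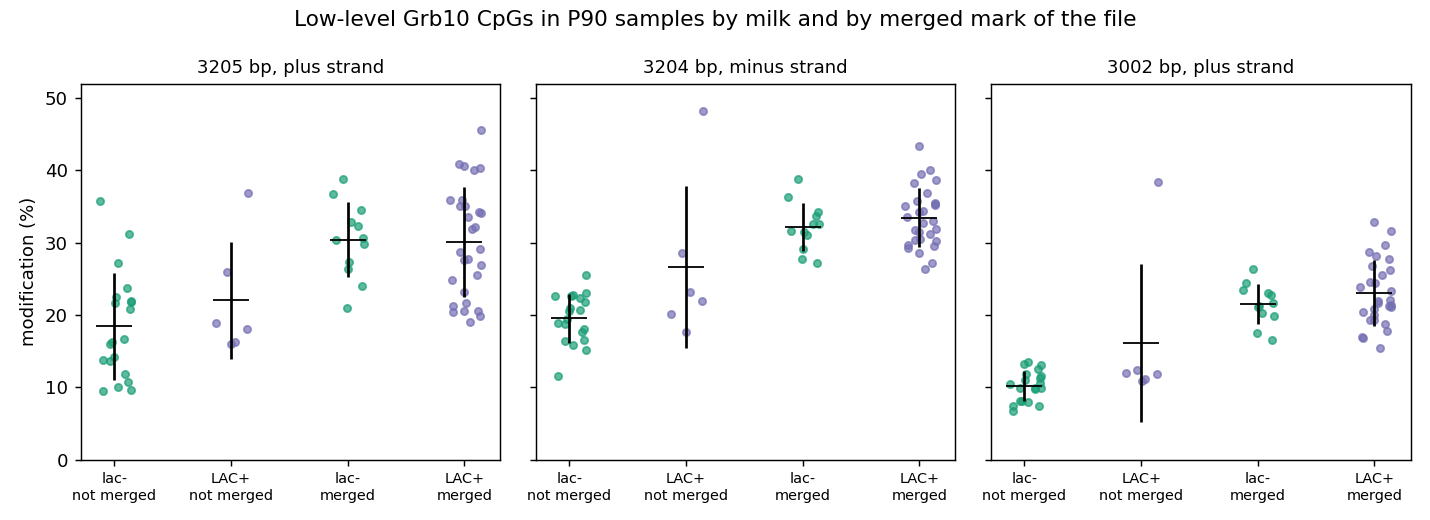
Modification (percent) at the 3 low-level cytosines of the first cluster (panels, by distance from the internal *Grb10* start at 12026324 and strand) in P90 samples, by milk and by whether the file was marked as merged. Points are samples, and bars the mean and SD. In the middle panel the lac- samples average 19.6% without and 32.2% with the mark, and the merged LAC+ samples 33.4%.

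P90 lac- mice were also set against P60 mice over segments 1, 3, 4, 7 and 8. No *Grb10* CpG of 20 passed the threshold with the quasi-binomial test, against 11.4% of all 1486 CpGs, while 4 had an unadjusted p under 0.05, beside 59.8% of all CpGs, and limma called 0. With Benjamini-Hochberg adjustment 3 passed, against 53.2% of all CpGs. The lowest p was at 12023322, with means of 11.6% in P60 and 14.5% in lac- samples (adjusted p = 1, permutation p = 0.00781). At this CpG, lac- files that were not merged averaged 10.2% ± 2.08 (SD, n = 20) and merged ones 21.5% ± 2.79 (SD, n = 12), and no P60 file was merged. With lane in the model the difference took the opposite sign, at -1.13 points.

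Other imprinted targets of the series were set beside these counts. Across P60 segments, 37 of 199 CpGs of *Zdbf2* (18.6%), 19 of 74 of *Dlk1-Meg3* (25.7%) and 0 of 17 of *Zrsr1* passed the same threshold, beside 2 of 20 for *Grb10* (10%) and 107 of 651 at the *Lct-Mcm6* locus (16.4%). Across P90 segments the shares were 18.2, 21.6, 0, 10 and 22.5% in the same order. The CpHs of the *Grb10* window gave 0 calls of 482 across P60 segments and 2 of 504 across P90 segments. Between P90 lac- and P60 mice, however, 39 of 504 of these CpHs passed (7.74%), beside 0 of 20 *Grb10* CpGs. In that comparison the shares were 3.66% of CpGs for *Zdbf2*, 20.3% for *Dlk1-Meg3*, 29.4% for *Zrsr1* (5 of 17) and 12.8% at the *Lct-Mcm6* locus. The cause of the CpH differences was not tested.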

How the data were processed

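The members and comparisons were chosen with earlier results of these data known. The authors deposited, for each cytosine and strand, counts of modified and unmodified reads, without normalization. Per the labels, reads were processed with Trimmomatic 0.32 and Bismark on GRCm38. The versions of other steps are not given in the sources used here. The first line of each file was malformed and skipped, which removed no CpG of the window.

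Percent modification was computed as modified reads over all reads, above 30 reads. A cytosine needed 3 such samples in each group. For each cytosine of the whole table, modified and unmodified counts entered a quasi-binomial F test with 1 dispersion. Bonferroni adjustment ran over CpGs and CpHs together, or for milk over CpGs at most 90% modified. The CpGs named in each comparison were those past the threshold, or otherwise that with the lowest p. Named CpGs were given two-sided exact permutation tests, or 100000 permutations (seed 1). CpGs within 500 bp formed a cluster. Alternatives were more than 10 or 100 reads, Benjamini-Hochberg at 0.05, limma 3.58.1 (R 4.3.3) on log2 odds with 0.5 reads added, lane, merged mark and replicate number as covariates, and left-out libraries. The work used Python 3.11.15, NumPy 2.4.6, SciPy 1.17.1 and pandas 2.3.3, and the test was checked on simulated data. Padlock reads carry no molecular identifiers, so the read depth gives counting error only. The labels do not say which samples came from 1 mouse. The study's methods count fewer mice per P60 segment than the samples fitted here, and mention a repeated-measures test. Samples of 1 segment, as well as samples of different segments, may therefore share mice. All samples were fitted as independent, and the p-values within and across segments do not account for shared mice. Annotation was from GENCODE, and probe positions were matched to GRCm38.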

Additional observations from a re-analysis of the deposited data

Results flagged for a closer look

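Of 60 groups of 4 to 10 samples tested with Dixon's ratio for a sample far from the others, 8 stood out, where chance gives about 1 in 20. The mean of the 17 *Grb10* CpGs was 62.69% in P60 segment 3 replicate 7, above the next sample at 60.88%.

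The other samples that stood apart did so at the dyad that rose along the gut. At 12025013, P60 segment 2 replicate 2 was at 62.86% (next sample 54.22%) and lac- segment 3 replicate 5 at 67.16% (next 54.55%), both high, and LAC+ segment 7 replicate 3 was low at 56.32% (next 60.41%). At 12025014, lac- segment 1 replicate 6 was high at 64.26% (next 58%), as was lac- segment 8 replicate 4 at 72.96% (next 68.5%). Low values at the same cytosine were 61.81% in P60 segment 9 replicate 4 (next 68.25%) and 53.9% in lac- segment 3 replicate 1 (next 58.68%). The P60 segment 9 sample was the one that overlapped with segment 1. None of the 7 samples stood out at both cytosines of the dyad. Of 6 differences between groups in the change along the gut at the dyad, none passed the permutation test (lowest Benjamini-Hochberg p = 0.872).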

How the results depend on the processing

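Of the alternatives run, 1 reversed a direction. With lane in the model, 12023322 was lower in P90 lac- than in P60 mice (-1.126 points rather than 2.91). Lane also moved the rise from segment 1 to 8 at 12025014 in P90 mice from 9.55 to 2.37 points, though it still passed across segments, and the milk difference at 12023120 in segment 8 from 11 to 4.79 points. With more than 100 reads, or with limma, 1 *Grb10* CpG rather than 2 passed across P60 segments, since 12025013 was lost (adjusted p = 0.0443 and 0.102). Across P90 segments 1 rather than 2 passed with limma, with lane, with the replicate block and with the merged mark, an alternative chosen after seeing the data, since 12023119 was lost (adjusted p = 1, 1, 0.0143 and 1). The cause of these changes was not tested. The cytosine at 12025014 passed across P60 and across P90 segments under each alternative run. Benjamini-Hochberg adjustment, a looser rule, gave 2 between P60 segments 1 and 9, 2, 1 and 1 between ages in segments 1, 3 and 7, 1 between milks in segment 8, 5 across P90 segments and 3 between P90 lac- and P60 mice. Bonferroni adjustment over CpGs only gave 1 between P60 segments 1 and 9. Leaving out each P6 sample in turn gave counts of 0 to 0 in each comparison with infants. Leaving out the libraries whose file names mark a repeat, also chosen after seeing the data, changed no count. With more than 100 reads, 15 CpGs rather than 17 were averaged, and the means were 63.32% in P60, 64.68% in LAC+ and 63.74% in lac- mice. From pooled reads the P6 mean was 56.33%.

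The replicate numbers were not taken as pairs, since the labels do not say what a number shares. Deviations from group means over 1312 CpGs correlated over 0.1 in 107 of 280 same-numbered P60 pairs, 7 of 9 P6 pairs and 58 of 131 P90 pairs. The replicate block changed no count other than that across P90 segments. A lane term could not be fitted for age, since all P6 samples shared 1 lane. Levels of CpGs near 30 reads are limited by counting error.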
